A study of Mus musculus with 12 samples.

Results

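Peroxisome proliferator-activated receptor alpha (PPAR alpha) and lipid genes under its control were followed in the hearts of mice that had breathed low oxygen. The 9 genes were chosen by name, and their records were read from a table of 39210 genes: the receptors Ppara and Ppard, the thioesterases Acot1 and Acot2, the mitochondrial genes Ucp3 and Mlycd, the lipid droplet genes Plin2 and Plin5, and the secreted regulator Angptl4. All 9 were among the 13960 genes with enough reads to be tested.

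RNA was sequenced from frozen ventricles of C57BL/6 mice in 12 libraries, 3 from each of 4 groups. Normoxic males and normoxic females breathed ordinary air, with 20.9% oxygen, for 4 weeks. Hypoxic males and hypoxic females spent 14 days in a chamber while oxygen came down a little each day, and then 2 weeks at 7%. No genetic change was given for any group, age was not stated, and the left and right ventricles were not told apart. Nothing in the sample records ties each library to a mouse of its own. The p-values weigh differences between groups against the spread of libraries within groups, and part of that spread may be technical.

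PPAR alpha is a nuclear receptor that is switched on by fatty acids and their derivatives. It binds DNA together with a retinoid X receptor and turns on genes for the uptake, storage, activation and oxidation of fat. The heart takes most of its energy from fatty acids, and heart muscle is rich in this receptor. PPAR delta, the product of Ppard, is a related receptor with overlapping targets. The paired receptors recognise a PPAR response element, a direct repeat of AGGTCA with 1 base between the copies.

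In hypoxia 5 of the 9 genes fell on average over both sexes, where 12.9% of all genes tested did: Ppara, Acot1, Ucp3, Plin5 and Mlycd, with changes between -41.1% (Plin5) and -79.6% (Acot1). Ppard, Acot2, Angptl4 and Plin2 did not pass the test. Female normoxia library 3 held up to 7.85 times as much of some of these transcripts as the other normoxia libraries, so the tests of the 9 genes and the counts of the lists are given with and without it.

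The start regions of 4 of the genes are printed to show how close their letters come to the response element: 2 of genes that fell (Ucp3 and Acot1) and 2 of genes that did not pass (Plin2 and Acot2). Sequences are the 250 bases upstream of the gene start from RefSeq (GRCm38.p6), written 5′ to 3′ in the gene's own direction, and 8 of the 9 genes had an entry; Angptl4 was not among them. Each start region, 250 bases upstream and 50 downstream, was searched on both strands for AGGTCA, any 1 base and AGGTCA again, with up to 3 mismatches at the 12 fixed letters, and for a single AGGTCA unit, which overlaps it. Capitals mark the best match to the repeat and any separate AGGTCA unit. A match is a description of letters, not a bound site. Ucp3 lies on the + strand at chr7:100472741-100472990, Plin2 on the - strand at chr4:86670060-86670309, Acot1 on the + strand at chr12:84009252-84009501 and Acot2 on the + strand at chr12:83987611-83987860.
Ucp3: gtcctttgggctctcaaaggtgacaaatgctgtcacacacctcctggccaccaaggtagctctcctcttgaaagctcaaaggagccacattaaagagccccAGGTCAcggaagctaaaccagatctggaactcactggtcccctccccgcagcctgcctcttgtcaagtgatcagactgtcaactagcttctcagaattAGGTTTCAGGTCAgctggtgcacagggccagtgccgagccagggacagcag
Plin2: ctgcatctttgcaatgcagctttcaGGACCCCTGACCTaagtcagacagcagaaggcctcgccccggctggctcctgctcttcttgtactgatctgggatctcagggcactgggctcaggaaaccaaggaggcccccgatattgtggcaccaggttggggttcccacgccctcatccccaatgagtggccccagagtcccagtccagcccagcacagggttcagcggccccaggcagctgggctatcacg
Acot1: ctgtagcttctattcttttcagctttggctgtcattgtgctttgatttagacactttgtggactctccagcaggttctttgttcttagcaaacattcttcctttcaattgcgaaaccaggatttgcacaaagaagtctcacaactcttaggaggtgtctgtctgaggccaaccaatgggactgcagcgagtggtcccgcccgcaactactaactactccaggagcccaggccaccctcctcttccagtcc
Acot2: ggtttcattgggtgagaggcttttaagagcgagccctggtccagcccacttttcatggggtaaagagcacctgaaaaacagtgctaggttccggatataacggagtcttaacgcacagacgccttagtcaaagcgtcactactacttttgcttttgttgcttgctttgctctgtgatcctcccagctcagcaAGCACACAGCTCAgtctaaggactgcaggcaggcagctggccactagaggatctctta

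The Ucp3 region had the best match on its sense strand, AGGTTTCAGGTCA, with 2 mismatches and starting 51 bases before the gene start, and a further AGGTCA upstream of it. Plin2 had a match with 2 mismatches on the opposite strand, starting 225 bases before the gene start and read here as GGACCCCTGACCT. Acot2 reached 3 mismatches with AGCACACAGCTCA, and the nearest stretch in its neighbour Acot1 had 4, outside the limit. Of 32851 mouse start regions 3.86% held a match with at most 2 mismatches, 24.6% one with at most 3, and 16.3% a single AGGTCA. Of the genes searched but not printed, Plin5 and Mlycd had matches with 3 mismatches, and Ppara (4) and Ppard (5) lay outside the limit. Of the genes with a match within the limit, Ucp3, Plin5 and Mlycd fell, and Plin2 and Acot2 did not pass. Ppara and Acot1 fell without such a match. The part of these letters in the changes was not tested.

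Levels below are CPM, counts scaled to a common library size after correction by TMM factors, which centre most genes. Fold changes are hypoxia against normoxia from edgeR's quasi-likelihood fit of all 12 libraries, adjusted p-values are Benjamini-Hochberg values over all genes tested, and the threshold was 0.05. Library totals ran from 14915830 to 19397851 estimated counts. The summed CPM of 10 ventricular cardiomyocyte markers (Myl2, Myh6 and others) was 65390 to 74450 in normoxia and 51620 to 72680 in hypoxia, with 0 of the 10 at 0 in any library, so heart muscle was present throughout. Averaged over the sexes 3 of the 10 passed as lower (30%, beside 12.9% of all genes) and 0 as higher, with a median change of -0.238. Without female normoxia library 3, 4 of the 10 passed as lower, beside 15% of all genes. The summed CPM of 7 atrial markers was 126.7 to 277.8 in normoxia and 232.7 to 1753 in hypoxia, highest in male hypoxia library 2, female hypoxia library 3 (1083) and male hypoxia library 3 (985.1). Results are also given without male hypoxia libraries 2 and 3, which stood apart in earlier results. Markers of other cells also differed between the oxygen groups. The 7 erythroid markers summed to 1582 to 2229 CPM in normoxia and 6735 to 11940 CPM in hypoxia. The 8 fibroblast markers summed to 1623 to 1991 CPM and 1672 to 2526 CPM. The 8 macrophage markers summed to 277.3 to 405.5 CPM and 319.9 to 650.6 CPM. Averaged over the sexes 7 of 7 erythroid, 5 of 8 fibroblast and 4 of 8 macrophage markers passed as higher. So did 7 of 8 endothelial and 4 of 5 tested atrial markers, beside 15% of all genes. Without female normoxia library 3 these counts were 7 of 7, 5 of 8, 3 of 8, 7 of 8 and 4 of 6, beside 17%. In that fit 1 atrial marker passed as lower. The part of the markers in the results was not tested. In whole tissue, fewer cells of a type and less RNA per cell cannot be told apart.

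**Figure D1:**
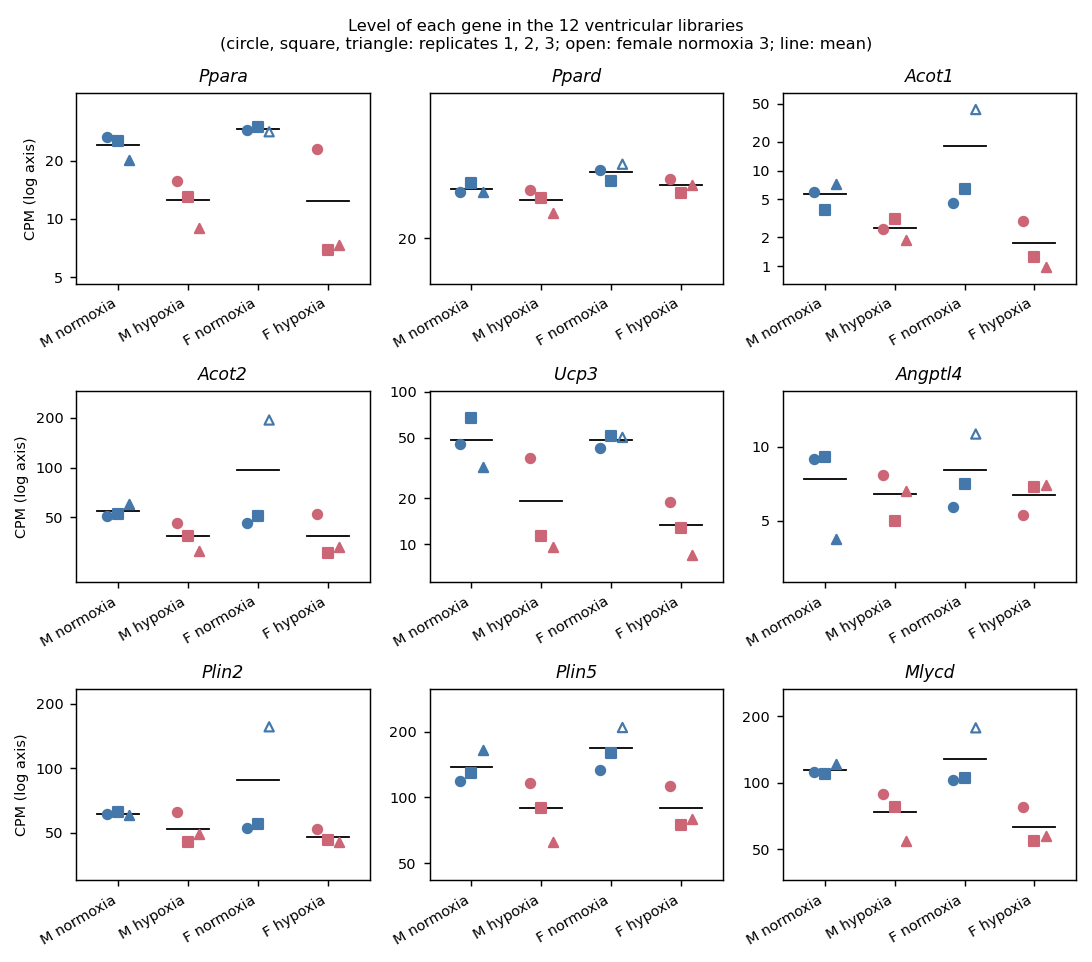
CPM of the 9 genes in each library on log axes, 1 panel per gene with its own axis range; blue is normoxia, red is hypoxia, the marker shape gives the replicate and the line is the group mean of 3 libraries. Female normoxia library 3 (open triangle) stands high for Acot1, Acot2 and Plin2 but not for Ppara or Ucp3.

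Ppara (ENSMUSG00000022383), the receptor gene itself, measured 26.7, 25.5 and 20.2 CPM in the normoxic male libraries 1 to 3 and 15.8, 13.0 and 8.98 CPM in the hypoxic male ones. It measured 29.0, 30.1 and 28.3 CPM in normoxic females and 23.1, 6.90 and 7.29 CPM in hypoxic females. Every hypoxia library lay below the normoxia libraries of its own sex, but female hypoxia library 1 stayed above the lowest normoxic male. Averaged over the sexes Ppara fell by 52.9% (log2 -1.09 ± 0.27, SE, edgeR adjusted p = 0.0135). Without female normoxia library 3 the fall was 53.3% (adjusted p = 0.0184), and that library, at 28.3 CPM, was close to the other normoxic females on this scale. The change was -0.94 in males (adjusted p = 0.117) and -1.23 in females (adjusted p = 0.0796), neither of which passed. Without female hypoxia library 1, the highest of its group, the change in females was -2.03 and passed (adjusted p = 0.000977). With each library left out in turn it ran from -2.03 to -0.94 in females, and the adjusted p from 0.000977 to 0.277.

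The deposited abundance of Ppara, in TPM (scaled by transcript length and library), was 4.86 to 9.07 TPM in the 6 normoxia libraries and 1.47 to 5.30 TPM in the 6 hypoxia libraries, of which 5, all but female hypoxia library 1, lay below the lowest normoxia value. The highest value, 9.07 TPM, was that of female normoxia library 3, against 6.55 and 6.16 TPM in the other normoxic females, with a transcript length of 1761 bases against 2573 and 2908. The average Ppara transcript length ran from 1256 to 3163 bases between libraries. Female hypoxia libraries 2 and 3, nearly equal at 6.90 and 7.29 CPM, had lengths of 3163 and 1256 bases and came out at 1.47 and 4.21 TPM. Ppara also fell when the lengths entered the fit as offsets (-1.14, adjusted p = 0.0143) and on the TPM scale (-0.89, limma adjusted p = 0.0227).

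Ppard (ENSMUSG00000002250), the sister receptor, varied little. It ran from 25.9 to 27.3 CPM in normoxic males, 23.1 to 26.2 in hypoxic males, 27.6 to 30.4 in normoxic females and 25.8 to 27.9 in hypoxic females. The groups overlapped in both sexes, and the averaged change was -0.10 ± 0.06 (adjusted p = 0.199), with a 95% interval of -0.228 to 0.0223. Without female normoxia library 3 it was -0.09 (adjusted p = 0.263). Its direction depended on the scaling: it was 0.10 on library totals and 0.21 on the TPM scale. All genes shifted too, since the median over every gene tested was -0.00615 with TMM, 0.199 on library totals and 0.286 on TPM. In normoxic males the receptors stood close to each other, at 5.07 ± 0.34 TPM for Ppara and 4.75 ± 0.38 for Ppard (SD, n = 3). In normoxic females Ppara was higher, at 7.26 ± 1.58 TPM against 5.67 ± 0.08 for Ppard. Their ranges there did not overlap, with or without library 3. In hypoxic females Ppard was at 6.06 ± 0.42 TPM and Ppara at 3.66 ± 1.98 TPM, and their ranges did not overlap.

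Acot1 (ENSMUSG00000072949) and Acot2 (ENSMUSG00000021226) encode acyl-CoA thioesterases, which release free fatty acids from coenzyme A in the cytosol and in mitochondria respectively. Acot1 measured 5.98, 3.85 and 7.23 CPM in normoxic males and 2.46, 3.14 and 1.88 CPM in hypoxic males. In females it went from 4.56, 6.37 and 43.7 CPM to 2.96, 1.25 and 0.972 CPM. All 6 hypoxia libraries lay below all 6 normoxia libraries in CPM. On the TPM scale 5 of the 6 lay below the lowest normoxia value of 1.067 TPM, and male hypoxia library 2 was at 1.254 TPM. The value of 43.7 CPM came from female normoxia library 3. Acot1 fell by 79.6% (log2 -2.29 ± 0.55, adjusted p = 0.0104), and without that library by 62.7% (-1.42 ± 0.30, adjusted p = 0.00566). In females alone the change was -3.40 (adjusted p = 0.0341), or -1.66 without that library (adjusted p = 0.0499) and -4.001 without female hypoxia library 1. With each library left out in turn the adjusted p in females ran from 0.0231 to 0.158. In males the change was -1.18 (adjusted p = 0.303).

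Acot2 was the more abundant of the pair, at 15.03 TPM against 1.49 TPM in normoxic males. It measured 51.3, 52.5 and 60.6 CPM in normoxic males and 46.3, 38.7 and 31.6 CPM in hypoxic males, with no overlap. Over all genes tested, 19.8% were lower without overlap in males. In TPM the male groups overlapped, with male hypoxia library 2 at 16.05 and male normoxia library 1 at 13.73. Acot2 went from 46.5, 51.0 and 194 CPM to 52.7, 30.5 and 33.0 CPM in females, where hypoxia library 1 reached above normoxia libraries 1 and 2. The averaged change of -0.91 ± 0.33 did not pass (adjusted p = 0.0568), nor did the -0.42 ± 0.15 left without female normoxia library 3 (adjusted p = 0.0558). DESeq2 called it with all libraries (adjusted p = 0.0453).

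The sequences of these neighbouring genes are alike, so salmon may have had to divide shared reads between them. In GRCm38 transcripts 16.7% of the 31-base words of Acot1 also occur in Acot2, and 29.9% of those of Acot2 occur in Acot1. The transcript set that salmon used was not given and may differ. Their separate levels are therefore uncertain, and their sum is less so. Acot1 made up 6.83% to 11.1% of the summed counts in the normoxia libraries other than female 3, 18.4% in female normoxia library 3, 5.05% to 7.51% in hypoxic males and 2.86% to 5.32% in hypoxic females. The sum fell by 1.03 on the log2 scale over both sexes (edgeR adjusted p = 0.0456), and by 0.49 without female normoxia library 3 (adjusted p = 0.0345).

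Ucp3 (ENSMUSG00000032942), a mitochondrial carrier of the uncoupling protein family found in muscle, measured 45.5, 67.3 and 32.1 CPM in normoxic males and 36.6, 11.3 and 9.64 CPM in hypoxic males. It measured 42.6, 51.5 and 50.1 CPM in normoxic females and 19.1, 12.8 and 8.48 CPM in hypoxic females. Male hypoxia library 1 lay inside the normoxic male range, while the female groups did not overlap. Over all genes tested, 12.7% were lower without overlap in females. Ucp3 fell by 66.9% (log2 -1.60 ± 0.33, adjusted p = 0.0056), and female normoxia library 3, at 50.1 CPM, left this nearly as it was (-1.58, adjusted p = 0.00836 without it). The change in females, -1.84, passed with that library (adjusted p = 0.0447) and not without it (-1.81, adjusted p = 0.0662). The change in males was -1.35 (adjusted p = 0.0711), and without male hypoxia library 1 it was -2.20 and passed (adjusted p = 0.00562). With each library left out in turn it ran from -2.20 to -1.025 in males, and the adjusted p from 0.00562 to 0.2125.

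Mlycd (ENSMUSG00000074064) encodes malonyl-CoA decarboxylase, which breaks down malonyl-CoA, the inhibitor of fatty acid entry into mitochondria. It measured 112, 110 and 122 CPM in normoxic males and 88.9, 77.3 and 54.3 CPM in hypoxic males. It measured 103, 105 and 178 CPM in normoxic females and 77.8, 54.2 and 57.4 CPM in hypoxic females. All 6 hypoxia libraries were below all 6 normoxia libraries in CPM. On the TPM scale 5 of the 6 were below the lowest normoxia value of 30.72 TPM, and male hypoxia library 2 was at 33.2 TPM. Mlycd fell by 43.9% (log2 -0.83 ± 0.17, adjusted p = 0.00449), and by 37.7% without female normoxia library 3 (-0.68 ± 0.13, adjusted p = 0.004). In males its change of -0.64 passed once that female library was left out (adjusted p = 0.0285, against 0.0838 with it). In females the change was -1.03 with that library (adjusted p = 0.0316) and -0.72 without it (adjusted p = 0.0517).

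Plin5 (ENSMUSG00000011305) encodes a perilipin that coats lipid droplets in tissues that burn fat and ties them to mitochondria. It measured 120, 129 and 164 CPM in normoxic males and 116, 89.3 and 62.8 CPM in hypoxic males. In females it went from 134, 159 and 209 CPM to 113, 75.0 and 80.2 CPM. No hypoxia library reached the lowest normoxia library, though male hypoxia library 1 came close to it. Plin5 fell by 41.1% (log2 -0.76 ± 0.17, adjusted p = 0.00805), and by 37.2% without female normoxia library 3 (adjusted p = 0.0134). On the TPM scale 3 of the 6 hypoxia libraries fell below the lowest normoxia value of 35.9 TPM.

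Plin2 (ENSMUSG00000028494), the perilipin that coats droplets in most cell types, did not pass. It measured 60.8, 62.7 and 60.8 CPM in normoxic males and 62.6, 45.0 and 49.3 CPM in hypoxic males, which overlapped. It measured 52.5, 55.1 and 156 CPM in normoxic females and 52.2, 46.1 and 45.5 CPM in hypoxic females, which lay just below. In TPM the female groups overlapped. The averaged change of -0.55 ± 0.24 did not pass (adjusted p = 0.105), and without female normoxia library 3 it was -0.20 ± 0.09 (adjusted p = 0.0967). Of the 31-base words of Acot2, 37.8% occurred in other genes, against 5.16% of those of Plin2.

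Angptl4 (ENSMUSG00000002289) encodes a secreted inhibitor of lipoprotein lipase, the enzyme that frees fatty acids from blood lipoproteins. It was low, at 8.93, 9.08 and 4.21 CPM in normoxic males and 7.68, 5.004 and 6.58 CPM in hypoxic males. It measured 5.67, 7.08 and 11.3 CPM in normoxic females and 5.27, 6.85 and 6.98 CPM in hypoxic females. The groups overlapped in both sexes. The averaged change was -0.27 ± 0.23 (adjusted p = 0.395), with a 95% interval of -0.766 to 0.223, and -0.11 without female normoxia library 3 (adjusted p = 0.727). On the TPM scale it was 0.05.

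**Figure D2:**
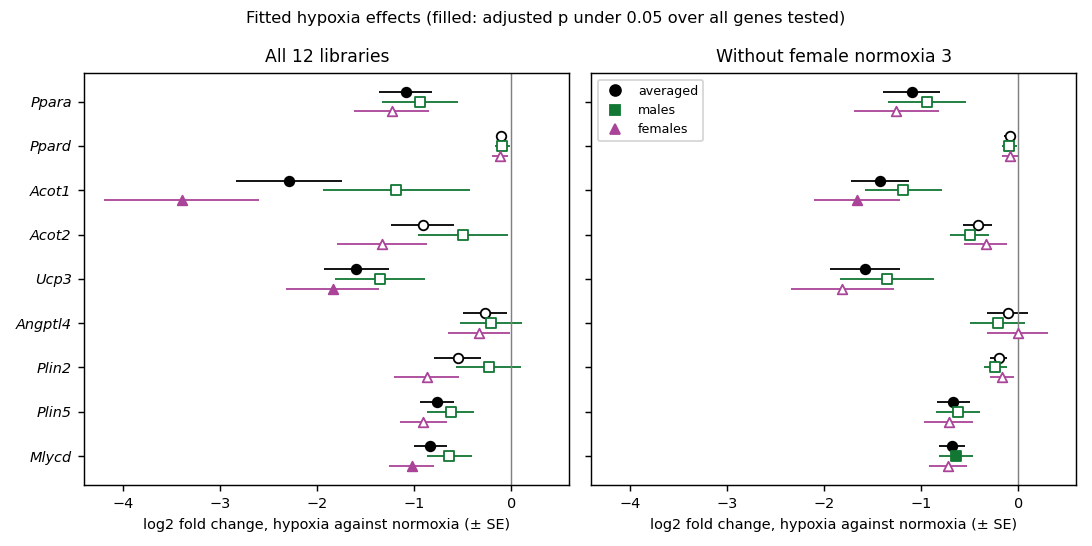
Log2 fold change of each gene, hypoxia against normoxia, with its SE, averaged over the sexes (circles), in males (squares) and in females (triangles), with all 12 libraries on the left and without female normoxia library 3 on the right; filled symbols passed at an adjusted p under 0.05. The averaged effects of Ppara, Acot1, Ucp3, Plin5 and Mlycd are filled in both panels, and the female effect of Acot1 shrinks from -3.40 to -1.66.

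Averaged over the sexes, 5 of the 9 genes passed as lower, where 12.9% of all genes tested did, and 0 passed as higher, where 15% did; none of the 9 fitted changes was above 0. The median change of the 9 was -0.83, beside -0.00615 for all genes. Without female normoxia library 3 the same 5 genes passed, beside 15% of all genes, and the median was -0.67. These genes were chosen with earlier results known, so the counts describe them and support nothing further. Without male hypoxia libraries 2 and 3 the median of the 9 was -0.69, but fewer passed. Ucp3 alone passed (-1.12, adjusted p = 0.0423), beside 3.42% of all genes, while Ppara was at -0.92 (adjusted p = 0.138), Acot1 at -2.30 (0.104), Plin5 at -0.57 (0.0873) and Mlycd at -0.69 (0.059). Without female normoxia library 3 as well, 3 genes passed, Acot1 (-1.44), Ucp3 (-1.11) and Mlycd (-0.54), beside 6.83% of all genes. With 1 hypoxic male left, its spread was taken from the other groups. The library left was male hypoxia library 1, the highest of its group in CPM for 8 of the 9 genes.

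In males 0 of the 9 genes passed by edgeR, where 7.1% of all genes passed as lower, although 4 (Ppara, Ucp3, Plin5 and Mlycd) had an unadjusted p under 0.05. DESeq2 called 2 of the 9 in males (Plin5 and Mlycd), limma voom 1 (Ucp3), and edgeR on the male libraries alone 4 (Ppara, Acot1, Acot2 and Mlycd). Leaving out female normoxia library 3 gave Mlycd, beside 9.73% of all genes, leaving out female hypoxia library 1 gave Ppara, and leaving out male hypoxia library 1 gave Ucp3 and Plin5. In females 3 passed (Acot1, Ucp3 and Mlycd), where 2.02% of all genes passed as lower, and without female normoxia library 3 only Acot1 did, beside 2.48% of all genes. The female count was 0 without female hypoxia library 2 or 3, 1 without female normoxia library 2, male hypoxia library 2 or male normoxia library 1, and 5 without female hypoxia library 1. Where no share of all genes stands beside a count for another method or omission, a change in that count may be a change over all genes. The female effect minus the male effect did not pass for any of the 9 by edgeR, DESeq2 or limma voom, with 0 at an unadjusted p under 0.05 by edgeR and 0.00716% of all genes past the threshold. The widest difference, for Acot1, was -2.21 ± 1.07 (adjusted p = 0.73), and its 95% interval ran from -4.57 to 0.139. In CPM, hypoxia and normoxia libraries did not overlap in either sex for 4 of the 9, Ppara, Acot1, Plin5 and Mlycd. Over all genes tested, 6.92% were lower without overlap in both sexes on that scale. In TPM the male groups overlapped for Acot1, Plin5 and Mlycd.

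Within the hypoxia groups most of the genes ranked the libraries alike. Library 1 was the highest of the hypoxic males for 8 of the 9 genes, all but Acot1, and library 1 was the highest of the hypoxic females for 8 of the 9, all but Angptl4. Over all genes tested the share was 36.1% in males and 40.2% in females. The same libraries also had the highest summed ventricular cardiomyocyte markers of their groups, at 64770 CPM against 54200 and 51620 in males and 72680 CPM against 54340 and 54910 in females. They had the lowest summed atrial markers, at 536.6 CPM against 1753 and 985.1 in males and 232.7 CPM against 506.8 and 1083 in females. The part of these markers in the spread of the 9 genes was not tested.

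Female normoxia library 3 stood above the other 5 normoxia libraries for most of the 9 genes, but not for Ppara or Ucp3 in CPM. Against the mean log2 level of those 5, it held 7.85 times as much Acot1, 3.72 times as much Acot2 and 2.67 times as much Plin2. Of 13960 genes, 0.351% stood as high or higher than Acot1 in this respect, 1.03% for Acot2 and 2.15% for Plin2. Angptl4 (1.67-fold), Mlycd (1.61-fold) and Plin5 (1.49-fold) were also above the range of the other 5, as was Ppard by 1.12-fold, whereas Ppara (1.09-fold) and Ucp3 (1.08-fold) lay within it. In all 7 of the 9 genes, 77.8%, were above that range, beside 22 of 32 other PPAR alpha targets (68.8%) and 30% of all genes.

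Some other lipid genes were also high in that library, and Pdk4 and Pnpla2 were picked after their values were seen. Of the 32 other targets 8 lay within the range of the other normoxia libraries and 2, Cpt1a and Hadh, below it. Pdk4, the kinase that shuts off pyruvate oxidation, stood at 1240 CPM against 98.5 to 237.9 CPM in the other normoxia libraries. Pnpla2, the lipase that opens triglyceride stores, stood at 1078 CPM against 274.8 to 327.7 CPM. The summed level of 12 immediate early genes was 1435 CPM in that library and 201.5 to 390.7 CPM in the other 11. The summed level of 12 adipocyte markers was 1092 CPM there, 581.9 to 722.6 CPM in the other normoxia libraries and 829.8 to 1264 CPM in hypoxia, with the adipocyte perilipin Plin1 at 0 in all 12 libraries. The 6 hepatocyte markers summed to at most 3.27 CPM in any library. The part of the immediate early genes and adipocyte markers in these levels was not tested.

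**Figure D3:**
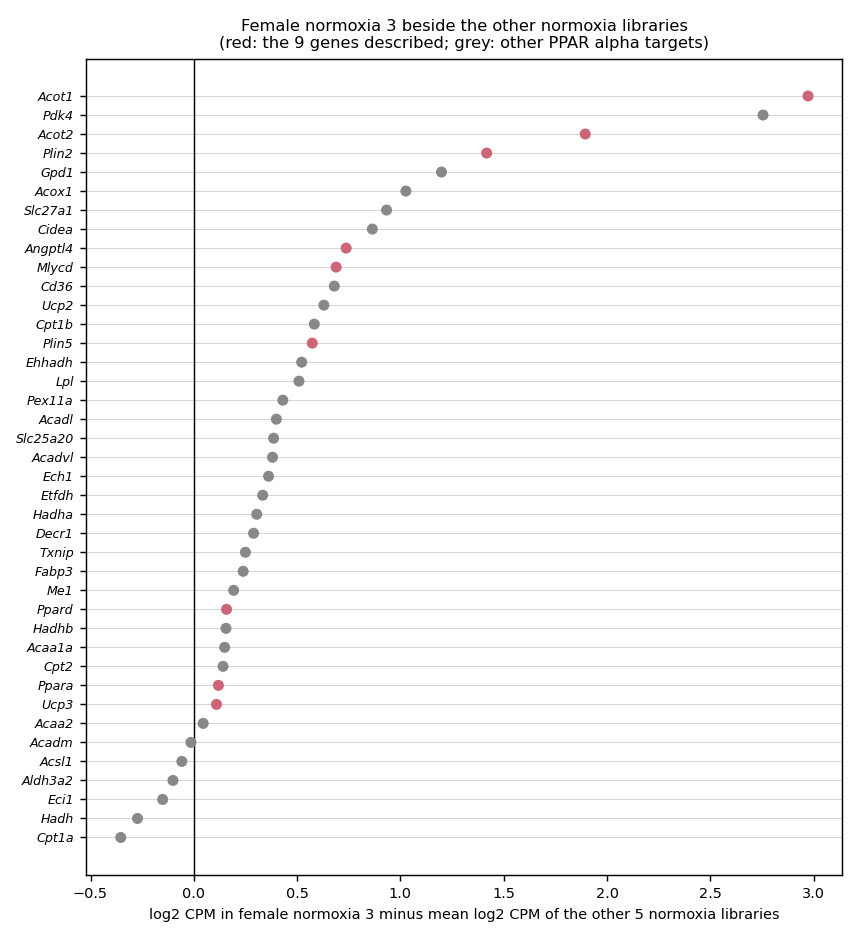
Level of female normoxia library 3 relative to the mean log2 CPM of the other 5 normoxia libraries, for the 9 genes (red) and 31 other PPAR alpha targets (grey), on a log2 axis. Of the genes shown, Acot1, Pdk4, Acot2 and Plin2 lie furthest to the right, and Ppara and Ucp3 lie close to 0.

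By abundance per transcript length the 9 genes kept nearly 1 order. In normoxic males Plin5 stood at 42.3 ± 6.83 TPM (SD, n = 3), Plin2 at 34.6 ± 2.37 and Mlycd at 32.5 ± 1.61, and the ranges of neighbours in this order overlapped. Acot2 (15.03 ± 1.27) and Ucp3 (12.01 ± 4.97) followed, overlapping each other and clear of the genes above and below them. The receptors came next, then Angptl4 at 2.32 ± 0.85 and Acot1 at 1.49 ± 0.40, which overlapped. In both hypoxia groups Ppard ranked above Ucp3 and Ppara, within the spread of Ucp3 in males (6.03 ± 0.96 against 6.02 ± 4.03 TPM), and the other 6 genes had the same places as in normoxic males. In normoxic females Acot1 ranked above Angptl4 with library 3 (5.13 ± 6.13 TPM against 2.69 ± 1.08), a difference that lay within the spread.

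The wider set of PPAR alpha targets, 40 listed genes of which 32 were tested, was mostly lower in hypoxia. Of the 32, 24 passed as lower and 1 as higher, beside 12.9% and 15% of all genes, with a median of -0.73. Without female normoxia library 3 the counts were 21 and 1, beside 15% and 17% of all genes, and without male hypoxia libraries 2 and 3 they were 10 and 0, beside 3.42% and 5.41%. The smallest p-values were those of the fatty acid import enzyme Cpt2 (-1.01 ± 0.12, adjusted p = 0.000466), the fatty acid carrier Fabp3 (-0.84 ± 0.11, 0.000597) and the beta-oxidation enzymes Hadhb (-0.95 ± 0.13, 0.00073), Ech1 (-1.10 ± 0.16, 0.00116) and Decr1 (-0.82 ± 0.12, 0.00126). Mean Cpt2 was 241.8 CPM in normoxic and 112.9 CPM in hypoxic males. In females it was 238.4 CPM in normoxia libraries 1 and 2, 264.7 CPM in library 3 and 130.5 CPM in hypoxia. The gene that rose was Ucp2 (0.48 ± 0.13, adjusted p = 0.0173), a relative of Ucp3 found in many cell types. Pdk4 did not pass (-0.85, adjusted p = 0.171; -0.15 without female normoxia library 3).

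**Figure D4:**
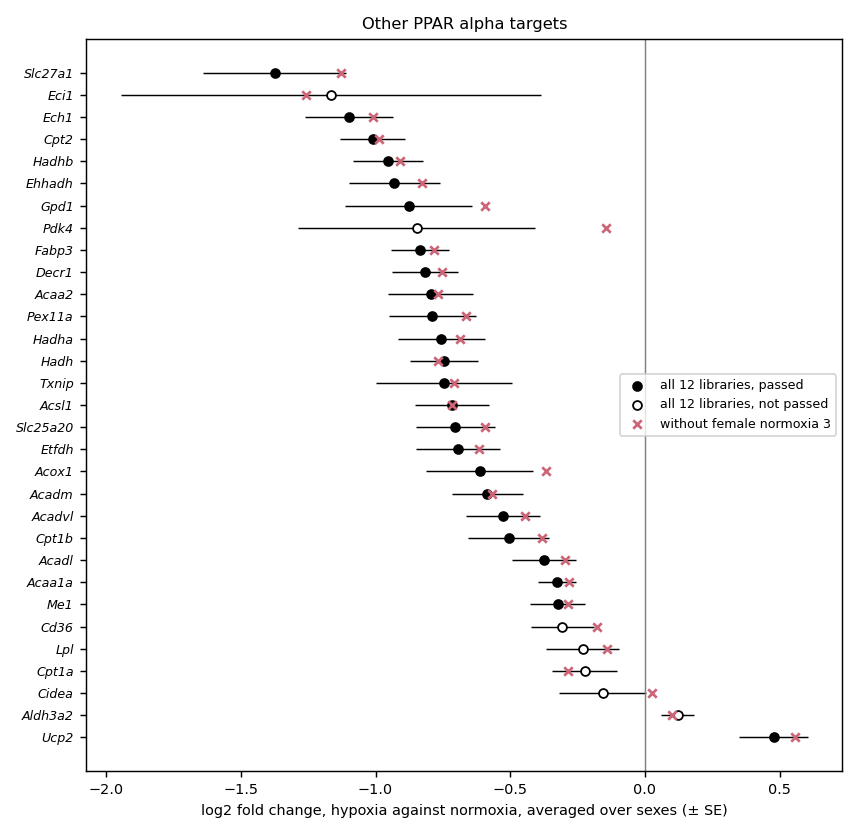
Log2 fold change, hypoxia against normoxia averaged over the sexes, of 31 other PPAR alpha targets tested, with SE; filled circles passed at an adjusted p under 0.05, open circles did not, and crosses give the value without female normoxia library 3. Most values lie between 0 and -1.1, Ucp2 is the 1 that rose, and Pdk4 moves furthest of those shown when that library is left out.

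Among 18 partners and coregulators of the receptor, 17 were tested, 2 fell (11.8%, beside 12.9% of all genes) and 0 rose, with a median of -0.07 beside -0.00615 for all genes. Leaving out female normoxia library 3 gave 1 and 1, and leaving out male hypoxia libraries 2 and 3 gave 0 and 0 by edgeR, with 2 genes, in either direction, at an unadjusted p under 0.05. The partner receptor Rxrg fell (log2 -0.66 ± 0.16, adjusted p = 0.0125; -0.77 without female normoxia library 3, adjusted p = 0.00248). The coactivator Ppargc1a, which drives mitochondrial genes, fell as well (-0.73 ± 0.23, adjusted p = 0.033), and its change of -0.61 did not pass without that library (adjusted p = 0.0631). Rxra, the more widely expressed partner, was at -0.20 (adjusted p = 0.0949). Pparg, the receptor of fat cells, was at 0.72 ± 0.33 (adjusted p = 0.125) and rose by 0.99 once that library was left out (adjusted p = 0.0365). Its mean was 5.96 CPM in normoxic and 15.2 CPM in hypoxic males. In females it was 4.81 CPM in normoxia libraries 1 and 2, 11.3 CPM in library 3 and 7.46 CPM in hypoxia. With all libraries its change was 1.34 in males (adjusted p = 0.0735) and 0.098 in females (adjusted p = 0.925).

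The relatives of the chosen genes were mixed. For the counts that follow, 12.9% of all genes were lower and 15% higher with all libraries, 15% and 17% without female normoxia library 3, and 3.42% and 5.41% without male hypoxia libraries 2 and 3. Of 9 other thioesterases tested 6 fell (66.7%) and 0 rose, among them Acot3 (-2.17, adjusted p = 0.00878), Acot6 (-0.76, adjusted p = 0.00754) and Acot7 (-0.46, adjusted p = 0.00317), and the median was -0.40. The counts changed without female normoxia library 3, when 5 fell and 1 rose, Acot9 (0.33, adjusted p = 0.0119), and without male hypoxia libraries 2 and 3, 2 fell and 0 rose. Acot3 was near the limit of detection, at 1.65 CPM in normoxic and 0.223 CPM in hypoxic males, Acot4 did not pass (-0.76, adjusted p = 0.055), and Acot5 was at 0 in all 4 groups. Acot3, Acot4, Acot5 and Acot6 are close relatives of Acot1 and Acot2, and reads may be split between them as well. Of 4 tested carriers of the uncoupling family 2 rose and 0 fell: Ucp2 and Slc25a30 (0.60 ± 0.11, adjusted p = 0.00286). The counts were the same without female normoxia library 3, and 1 rose without male hypoxia libraries 2 and 3. Ucp1, the carrier of brown fat, had too few reads to test.

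Of 20 other genes of lipid droplets and triglyceride turnover 6 fell (30%, beside 12.9% of all genes) and 1 rose (5%, beside 15%), with a median of -0.42. Of 21 tested without female normoxia library 3, 8 fell and 1 rose, and without male hypoxia libraries 2 and 3, 2 of 20 fell and 1 rose. Agpat2, which makes phosphatidic acid on the way to triglyceride, fell (-0.84 ± 0.08, adjusted p = 0.000128), and so did G0s2, an inhibitor of the lipase Pnpla2 (-1.29 ± 0.21, adjusted p = 0.0019). Dgat2, which completes triglyceride, fell by 0.71 (adjusted p = 0.00621) and Cideb by 1.03 (adjusted p = 0.00362). Mgll, the monoglyceride lipase, rose by 0.54 (adjusted p = 0.00282). The widely expressed perilipin Plin3 fell by 0.47 (adjusted p = 0.0166), and Plin4 was at -0.40 (adjusted p = 0.136).

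Of 10 genes around lipoprotein lipase 4 fell (Angptl1, Lmf1 and Vldlr among them) and 1 rose (40% and 10%, beside 12.9% and 15% of all genes), with a median of -0.24. In the fit without female normoxia library 3, 3 fell and 1 rose, and without male hypoxia libraries 2 and 3, 0 fell and 1 rose by edgeR, with 4 genes, in either direction, at an unadjusted p under 0.05. The gene that rose was Gpihbp1 (0.55 ± 0.12, adjusted p = 0.00789), which holds the lipase on capillary endothelium, in libraries where 8 endothelial markers summed to 1203 to 1605 CPM in hypoxia and 823.6 to 1120 CPM in normoxia. The part of the endothelial markers in that rise was not tested. Lpl itself was at -0.23 (adjusted p = 0.228) and the lipase maturation factor Lmf1 fell by 0.43 (adjusted p = 0.0111). Of 13 genes for malonyl-CoA and AMP-activated kinase 3 fell and 1 rose (23.1% and 7.69%, beside 12.9% and 15% of all genes), with a median of -0.14. There were 3 that fell and 2 that rose without female normoxia library 3, and without male hypoxia libraries 2 and 3, 2 fell and 0 rose. The kinase subunit Prkab1 fell (-0.58 ± 0.06, adjusted p = 0.000326), Prkag2 rose by 0.49 (adjusted p = 0.00862), and Acacb, whose product makes the malonyl-CoA that Mlycd removes, was at -0.44 (adjusted p = 0.0697). Some of these lists share a gene, such as Lpl and Ucp2.

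Of the 6 genes most like Ppara over the 12 libraries, by Pearson correlation of log2 CPM among 10945 genes, 5 were Atp2a2 (r = 0.98), Twnk (0.97), Acsl1 (0.96), Cmya5 (0.96) and Cd99l2 (0.96). These values describe 12 libraries that share the oxygen groups and the spread within hypoxia. Of these 6 genes 3 were also in the leading 6 without female normoxia library 3, and 2 by rank correlation. Among the chosen genes Ucp3 (0.88), Mlycd (0.86) and Plin5 (0.86) were most like Ppara and Angptl4 (0.20) least. By the same correlation Ucp3, Mlycd and Plin5 held ranks 242, 360 and 389 of the 10945 genes, so many other genes were more like Ppara. Leaving out female normoxia library 3 raised the value for Acot1 from 0.75 to 0.89 and for Acot2 from 0.65 to 0.89.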

How the data were processed

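RNA was sequenced from 12 ventricle libraries prepared, per the labels' protocols, with a directional mRNA kit. Per the submitters' processing notes, reads passed through FastQC and Salmon with GRCm39 named as build. Not given in the sources used here were versions, the annotation release and the strand setting. Per the file headers, the authors' table holds estimated counts, not scaled from abundance, average transcript length and TPM, the TPM summing to 889905 to 926060 per library as deposited.

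Estimated counts were rounded. Symbols came from a GRCm38 annotation and covered 99.3% of identifiers. filterByExpr left 13960 genes; edgeR 4.0.16 (R 4.3.3) with TMM factors and a group-means model of all 12 libraries gave two-sided quasi-likelihood tests, adjusted by Benjamini-Hochberg. SEs were computed from fold changes and F values. The procedure was also run on simulated counts with the same dispersion for every gene and no outlying libraries. That run cannot show how it handles libraries that stand apart, as some do here. Alternatives used DESeq2 1.42.0, limma 3.58.1 (voom, and log2(TPM + 0.1)), other scalings and filters, and each library left out. The 9 genes and the lists were chosen with earlier results of these data known. All 9 genes were named, with up to 5 genes per list by smallest p in the averaged contrast, family relatives of the 9, and the 6 genes most correlated with Ppara. Pdk4, Pnpla2 and Lpl were picked after their values were seen. Results for a few other genes are not reported here.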

Additional observations from a re-analysis of the deposited data

How the results depend on the processing

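The 5 genes that fell on average over the sexes passed under RLE and upper quartile factors, both other filters, removal of mitochondrial and haemoglobin genes, length offsets, library totals, TPM and DESeq2; limma voom left out Acot1 (adjusted p = 0.0569). Leaving out 1 library gave 5 to 7 genes on average (Acot2 passed without female hypoxia library 1 or female normoxia library 1 or 2, Plin2 without female normoxia library 1), 0 to 2 in males, 0 to 5 in females and 0 for the sex difference. Without male hypoxia libraries 2 and 3 the averaged count was 1, and 3 without female normoxia library 3 too (chosen after seeing the data, as were library totals, TPM and the Acot1 and Acot2 sum). The male count was 2 by DESeq2, 1 by limma voom and 4 on the libraries compared; the female count was 5 by DESeq2, 0 on the libraries compared (each gene then tested against the spread of 6 libraries) and 0 on TPM. Same-numbered libraries were little correlated: of 18 such pairs 1 correlated above 0.1 (range -0.045 to 0.186). That pair was male hypoxia library 1 and female hypoxia library 1. Low correlations cannot show that the replicate numbers carry no pairing or shared batch. With the replicate number as a block 5 genes passed on average, 1 in males, 3 in females and 0 for the sex difference. Signs turned as follows, in genes that had not passed, and the cause was not tested. Without male hypoxia libraries 2 and 3, in males, Angptl4 was at 0.0523 and Plin2 at 0.0291; without female normoxia library 3 too, Angptl4 was at 0.0239 on average and 0.0518 in males and Plin2 at 0.0289. On library totals Ppard was at 0.10 on average, 0.16 in males and 0.043 in females, Angptl4 at 0.0251 and Plin2 at 0.0089 in males. On TPM Ppard was at 0.21, 0.33 and 0.0912, Angptl4 at 0.0467 on average and 0.22 in males, and Plin2 at 0.0351 in males. The share of calls that were higher was 53.9% with TMM, 86.7% on library totals and 93.9% on TPM. The sex difference of the Acot1 and Acot2 sum was 0.13 without female normoxia library 3. With 1 library left out the sex difference ran from -0.0713 to 0.0192 for Ppard, -1.16 to 0.16 for Acot2, -0.82 to 0.36 for Ucp3, -0.31 to 0.21 for Angptl4 and -0.90 to 0.0667 for Plin2.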
